A study of Homo sapiens with 8 samples.

Results

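The collagen genes were followed here in human neuroblastoma cells: the genes of the collagen chains themselves, and of the enzymes and the chaperone that modify, fold and crosslink them. A gene was included if a probe on the array carried a symbol of the form COL, number, A, number, or was named P4HA1 to P4HA3, PLOD1 to PLOD3, LOX, LOXL1 to LOXL4 or SERPINH1, with the probe of the highest mean signal standing for its gene. This gave 55 of 31426 genes, read by 89 of 47322 probes, of which 43 were collagen chains and 12 were modifying, crosslinking or folding proteins. SH-SY5Y is a neuroblastic subclone and SH-EP2 an epithelial-like, non-neuronal subclone of the same parental line, SK-N-SH. Each line was transduced with a lentivirus that carried either a scrambled shRNA, the control, or an shRNA against TRPM7, an ion channel fused to a kinase. Total RNA of each of these 4 groups was hybridised to 2 Illumina bead arrays, 8 arrays in all. All groups, controls included, therefore carried a lentiviral vector and had passed the same selection. A single TRPM7 shRNA was profiled, and the sources do not say whether the 2 arrays of a group came from separate cultures, so p-values measure the spread between these arrays, which may be technical.

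Collagen chains are modified while they enter the endoplasmic reticulum: prolyl 4-hydroxylases stabilise the helix that the chains wind into, lysyl hydroxylases prepare the sites of later crosslinks, and the chaperone SERPINH1, also called HSP47, holds the folded helix on its way to secretion. Outside the cell, lysyl oxidases crosslink the assembled fibrils or networks. Fibrillar collagens, with types I, III and V among them, form the fibrils of connective tissue, type IV forms the network of basement membranes, and type VI forms beaded filaments next to cells. In a neuroblastoma such matrix is made by stromal cells, and in culture also by tumour cells of the mesenchymal, substrate-adherent type.

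The promoters of the genes on which the results turn are shown first, as listed by RefSeq on GRCh38.p14, where 41 of the 55 genes had an entry. Those of COL1A1, COL1A2, COL3A1, COL5A2, COL8A1 and LOXL2 were missing. COL4A1 and COL4A2, the main chains of basement membrane collagen, lie head to head and share the 126 bases between their starts, at chr13:110307158-110307283, shown on the plus strand, on which COL4A2 is read. The second sequence is the stretch of 250 bases before the outermost of the 3 listed starts of LOX, at chr5:122078260-122078509, on the minus strand. LOX is shown because it was the only gene here that was called in opposite directions in the 2 lines. The last is the stretch of 250 bases before the outermost of the 2 listed starts of SERPINH1, at chr11:75562003-75562252, on the plus strand, shown because SERPINH1 was lower with the TRPM7 shRNA in both lines. Capitals mark motifs searched on both strands: the CCAAT box, the GC box in the form GGGCGG, and a minimal heat shock element in the form GAANNTTC. None of the marked stretches overlapped another.
COL4A1 and COL4A2: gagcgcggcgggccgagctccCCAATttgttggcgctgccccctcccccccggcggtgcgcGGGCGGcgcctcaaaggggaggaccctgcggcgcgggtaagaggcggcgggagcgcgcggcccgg
LOX: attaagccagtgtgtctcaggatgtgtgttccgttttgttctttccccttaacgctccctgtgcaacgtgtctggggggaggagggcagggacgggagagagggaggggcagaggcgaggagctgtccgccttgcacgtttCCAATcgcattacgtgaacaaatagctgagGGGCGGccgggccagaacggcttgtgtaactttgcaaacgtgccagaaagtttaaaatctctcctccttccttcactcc
SERPINH1: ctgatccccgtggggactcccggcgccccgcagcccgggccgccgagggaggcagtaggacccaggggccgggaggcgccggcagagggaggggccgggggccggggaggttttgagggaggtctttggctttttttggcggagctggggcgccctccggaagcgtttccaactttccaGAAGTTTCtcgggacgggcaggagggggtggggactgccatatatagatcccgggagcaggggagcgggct
The type IV interval and the LOX promoter each held 1 CCAAT box and 1 GC box, and the SERPINH1 promoter held 1 heat shock element and neither of the others. Among all 35116 promoters listed, windows of 250 bases held CCAAT in 32.0%, the GC box in 42.6% and the heat shock element in 5.78%. In windows of 126 bases these shares were 21.1%, 34.6% and 2.77%.

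Levels are given below as normalised signals on a log2 scale, so that a difference of 1 is a doubling, and they are compared only within a gene. A probe was called detected on an array when its detection p-value was under 0.05. Of the 55 genes, 18 were detected on all 8 arrays and 14 on none. The undetected genes were COL2A1, COL4A3, COL4A4, COL6A6, COL9A3, COL10A1, COL15A1, COL21A1, COL22A1, COL25A1, COL28A1, COL29A1 (an older name of COL6A5), P4HA3 and LOXL2. Arrays were alike in brightness, with median signals between 104.7 and 119.9 and between 40.8% and 44.2% of probes detected. The probe for TRPM7 was not detected on any array, with log2 signals between 2.46 and 3.02, so the arrays do not check the knockdown. The noradrenergic genes that mark SH-SY5Y were present there, with 10 of 11 detected on both control arrays and only TH, the enzyme that starts catecholamine synthesis, undetected on all 8. All 12 mesenchymal markers were detected on both control arrays of SH-EP2, and 10 of them were higher there than in SH-SY5Y, whereas VIM (-0.19) and TWIST1 (-1.24) were lower. Among the Schwann markers, 2 of 5 were undetected on every array, and among the endothelial markers 3 of 5.

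**Figure D1:**
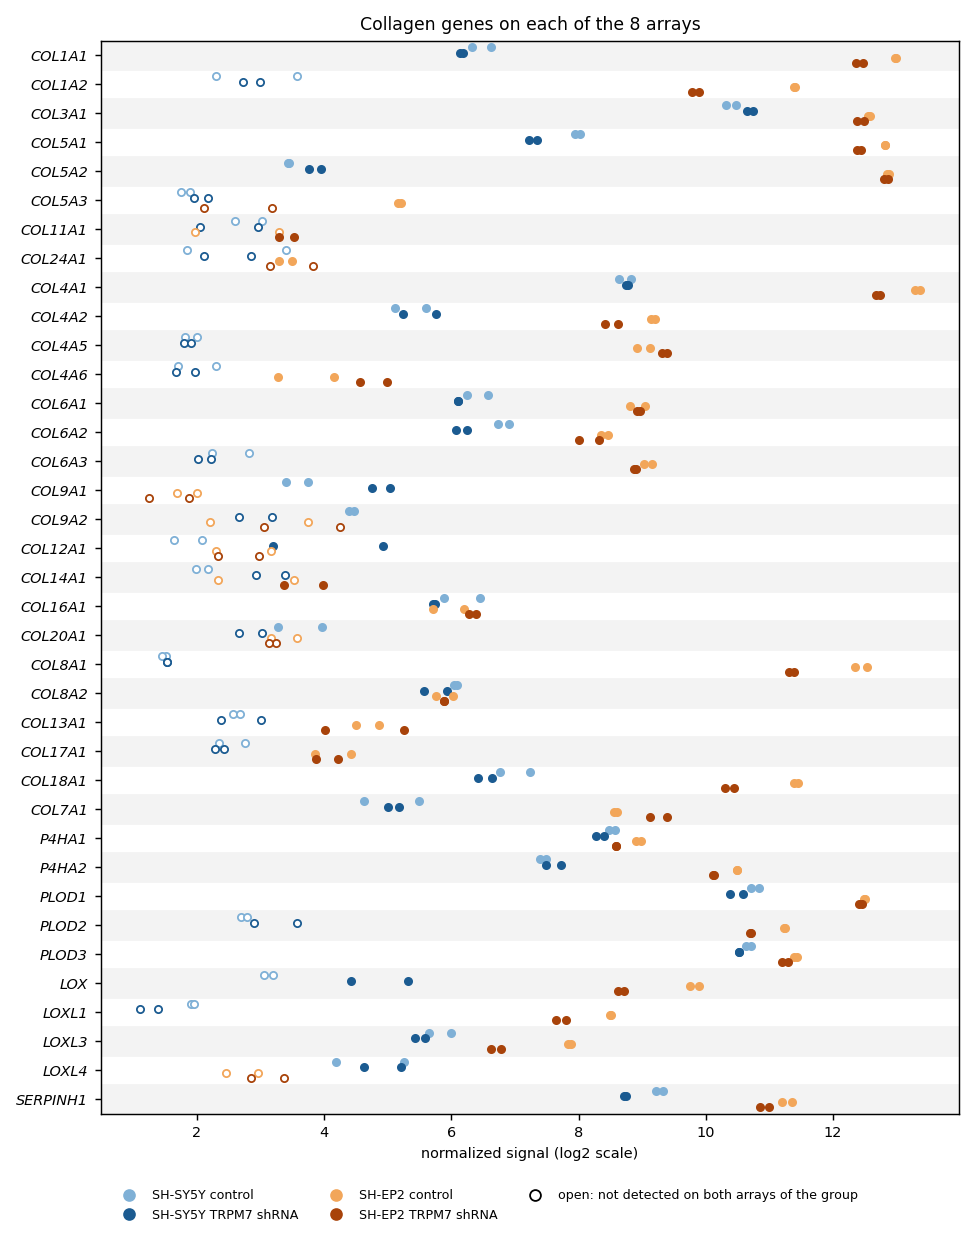
Normalised signal (log2 scale, x axis) of every collagen gene detected on both arrays of at least 1 group (y axis, ordered by role). Each dot is 1 array, coloured by cell line and shRNA, and open dots belong to groups in which the probe was not detected on both arrays; dots compare within a row only. For most genes the SH-EP2 dots lie to the right, as for COL1A1, whose SH-EP2 signals were 12.37 to 12.99 and whose SH-SY5Y signals were 6.14 to 6.62.

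The first comparison asked how the control cells of the 2 lines differed in collagen expression. Most collagen genes that could be measured were higher in SH-EP2: 29 of 55 passed an adjusted p of 0.05 (limma, Benjamini-Hochberg over all probes), 27 of them higher in SH-EP2 and 2 lower. This was 52.7% of the members, where 30.1% of all genes were called in this comparison, 14.2% as higher in SH-EP2 and 15.9% as lower. Of the 14859 genes detected on both control arrays of at least 1 line, 61.8% were called, and the 29 called members were among 34 detected in that way. The median difference of the members was 0.85, against -0.019 over all genes. By role, COL6A1, COL6A2 and COL6A3 were higher, as were 6 of 11 fibrillar chains, 4 of 6 type IV chains, all 3 lysyl hydroxylases, P4HA1 and P4HA2, 3 of 5 lysyl oxidases and SERPINH1. Of the fibril-associated collagens 1 of 10 was called, and that one lower. Many of these could not be read: 6 were undetected in SH-SY5Y control and 5 in SH-EP2 control, where 1 was detected on both arrays. The study's methods name a different base medium for each line while the labels name a single medium, and the part of the medium in these differences was not tested.

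The 10 largest called differences, taken in order of the fitted value, were those of COL8A1, COL5A2, PLOD2, COL1A2, COL4A5, LOX, LOXL1, COL6A3, COL1A1 and COL5A1. COL8A1, a short chain collagen found in vessel walls and the cornea, gave 1.51 and 1.45 in SH-SY5Y control, where it was not detected, and 12.34 and 12.53 in SH-EP2 control, at least 622-fold higher. For COL5A2, a chain of type V that sits inside type I fibrils, the signals were 3.45 and 3.44 against 12.88 and 12.84, a difference of 9.42 ± 0.12 (SE, n = 2 arrays per group; limma adjusted p = 7.26e-21). PLOD2, the lysyl hydroxylase of the ends of collagen chains, was not detected at 2.69 and 2.78 in SH-SY5Y control and gave 11.25 and 11.22 in SH-EP2 control, at least 271-fold higher. These bounds and differences are on the background-corrected scale, and where SH-SY5Y lies near background they depend on that step. Without background correction the fitted differences were still called but smaller, at 5.83 for COL8A1, 5.95 for COL5A2, 4.45 for PLOD2, 4.58 for COL1A2, 3.09 for LOX, 2.59 for COL4A5, 2.55 for COL6A3 and 2.17 for LOXL1, so that the bounds do not hold on the uncorrected scale. COL1A1 and COL5A1, clearly detected in both lines, changed less, to 5.34 and 4.33.

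Type I collagen was far apart between the lines. COL1A1 gave 6.33 and 6.62 in SH-SY5Y control and 12.99 and 12.97 in SH-EP2 control, 91.1-fold higher (limma adjusted p = 7.09e-20). COL1A2, the partner chain of COL1A1, was detected on 1 of the 2 SH-SY5Y control arrays, at 3.57 and 2.29, and gave 11.40 and 11.39 in SH-EP2 control. COL5A1 rose from 8.01 and 7.95 to 12.82 on both arrays, 28.6-fold. COL3A1, the chain of type III collagen, was clearly detected in both lines, as COL1A1 and COL5A1 were, but differed less. It gave 10.47 and 10.31 in SH-SY5Y control and 12.55 and 12.58 in SH-EP2 control, 4.52-fold higher. The minor fibrillar chain COL5A3 was undetected in SH-SY5Y and at 5.21 and 5.17 in SH-EP2 control, at least 4.10-fold higher.

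The type IV pair COL4A1 and COL4A2, which share the interval shown above, were both higher in SH-EP2, by 4.60 ± 0.08 and 3.82 ± 0.19 (SE) on the log2 scale. COL4A5 was undetected in SH-SY5Y control and at least 58.4-fold higher in SH-EP2 control. Among type VI chains, COL6A1 and COL6A2 were higher by 2.52 and 1.59, and COL6A3, undetected in SH-SY5Y, by at least 61.4-fold. COL18A1, whose C-terminal fragment is endostatin, was higher by 4.42, and COL7A1, the anchoring fibril collagen, by 3.52. Among the enzymes, LOX was at least 102-fold and LOXL1 at least 40.6-fold higher on the corrected scale, against fitted log2 differences of 3.09 and 2.17 without background correction. The differences of P4HA1 (0.42), PLOD3 (0.74) and PLOD1 (1.73) were the smallest among the called enzymes that were measured in both lines, and SERPINH1 was higher by 2.0 ± 0.09 in SH-EP2 (limma adjusted p = 6.94e-13). In the other direction, COL9A1, a cartilage-type fibril-associated chain, was at least 1.28-fold and LOXL4, a lysyl oxidase, at least 2.83-fold lower in SH-EP2, where neither was detected in control cells. Without SH-SY5Y control replicate 1 both of these calls and that of COL4A6 were lost, which left 26 genes called, all higher in SH-EP2.

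**Figure D2:**
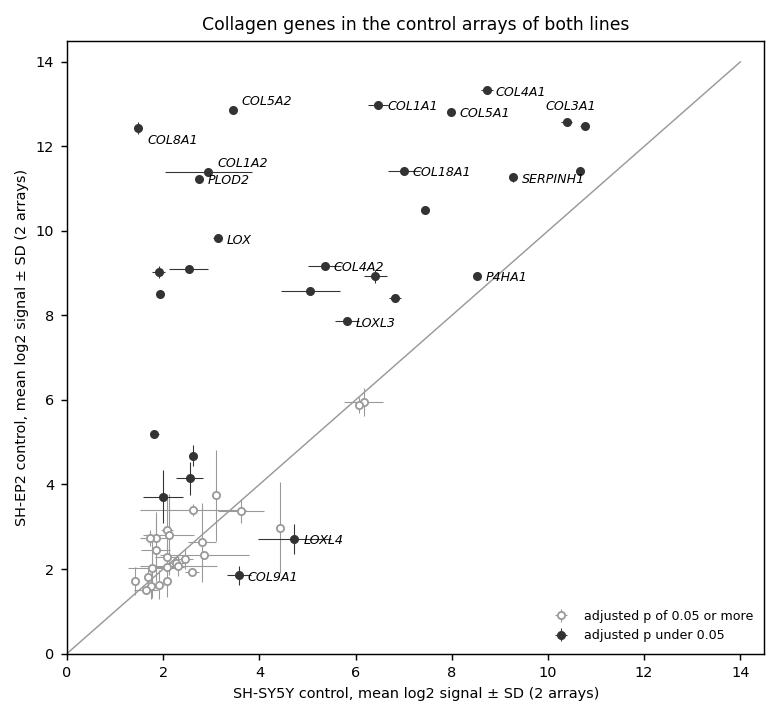
Mean log2 signal of the 55 collagen genes in SH-SY5Y control (x axis) and SH-EP2 control (y axis), with bars for the SD of 2 arrays and a line at equal values. Filled dots passed an adjusted p of 0.05; 27 of the 29 lie above the line, and COL9A1 and LOXL4 lie below it.

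The main comparison in SH-EP2 asked what the TRPM7 shRNA did to collagen expression in the line in which most of these genes were measurable. There 10 of 55 genes were called, all 10 lower with the TRPM7 shRNA: COL1A1, COL1A2, COL5A1, COL5A3, COL4A1, COL8A1, COL18A1, LOX, LOXL3 and SERPINH1. This was 18.2% of the members, where 3.68% of all genes were called, 1.86% as lower and 1.83% as higher. At an unadjusted p of 0.05, 18 members passed, 15 lower and 3 higher. The median change of the members was -0.074, against 0.010 over all genes. More members than genes at large could be read: 32 of the 55 were detected on both arrays of at least 1 SH-EP2 group, against 13974 of 31426 genes. Of those genes 8.19% were called. As a description, the median change was -0.22 over these 32 members and 0.024 over these genes. The single direction of the calls depended on the processing. COL7A1, named here after its values were seen, had higher values with the TRPM7 shRNA, 9.39 and 9.13 against 8.56 and 8.60 in control (0.68 ± 0.21, limma adjusted p = 0.108). It was called higher under neqc (0.0159), normexp with an offset of 50 (0.000295), no background correction (8.4e-05), the line fitted alone (5.1e-05), a replicate block with crossed SH-SY5Y numbers, added after seeing the data (0.0379), and without SH-SY5Y control replicate 1 (0.0119) or 2 (0.0143). COL4A5 was called higher without background correction (0.0483) and with the line fitted alone (0.0445). Under a per-probe test without moderation, or with a variance prior that ignored signal level, no member passed in any of the 3 comparisons of the shRNA; at an unadjusted p of 0.05 these gave 16 and 14 members in SH-EP2.

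Of the fibrillar chains, 4 of 11 fell. COL1A2 showed the clearest fall of type I collagen, from 11.40 and 11.39 in control to 9.78 and 9.89 with the TRPM7 shRNA, a change of -1.56 ± 0.27 (SE, n = 2; limma adjusted p = 0.00143) or 2.95-fold. A second COL1A2 probe gave 9.86 and 9.90 against 8.41 and 8.53, a change of -1.41. Its partner COL1A1 fell from 12.99 and 12.97 to 12.47 and 12.37, a change of -0.56 ± 0.11 (adjusted p = 0.00329). The 2 chains that build type I collagen thus were both called lower. For COL5A1, signals of 12.82 on both control arrays became 12.45 and 12.38, a change of -0.41 ± 0.09 (adjusted p = 0.0111). COL5A3 went from 5.21 and 5.17 to 2.11 and 3.19, at which it was detected on 1 of 2 arrays (adjusted p = 0.00418). The fitted change of COL5A3, -2.54, ends near background and shrank to -0.40 without background correction, whereas that of COL1A2 was -1.45 there; both were still called. The other abundant fibrillar chains did not pass, with 12.55 and 12.58 against 12.37 and 12.48 for COL3A1 and 12.88 and 12.84 against 12.79 and 12.87 for COL5A2. With a single SH-EP2 array left out, COL1A1 lost its call without control replicate 1 or 2 or TRPM7 shRNA replicate 2 (adjusted p = 0.0636, 0.0566 and 0.107), COL5A1 lost it without any of the 4 (0.0840 to 0.191) and COL5A3 without TRPM7 shRNA replicate 1 (0.109).

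Outside the fibrils, COL4A1 fell from 13.28 and 13.37 to 12.74 and 12.68, a change of -0.62 ± 0.08 (limma adjusted p = 0.000114). Its neighbour COL4A2 went from 9.14 and 9.21 to 8.42 and 8.63, a change of similar size, -0.65 ± 0.19, that missed the threshold (adjusted p = 0.0745). COL4A2 passed when the SH-EP2 arrays were fitted alone (adjusted p = 7.32e-05) and when any SH-SY5Y array was left out (0.0347 to 0.0381). The remaining type IV chains did not pass, and the values of COL4A5, 8.92 and 9.13 in control against 9.38 and 9.31, lay in the other direction. COL8A1 fell from 12.34 and 12.53 to 11.31 and 11.39, by 2.12-fold, and its other probes changed by -1.01 (adjusted p = 0.00853) and -1.62 (0.0891); without control replicate 2 the call of the first was lost (0.0662). COL18A1 fell from 11.39 and 11.45 to 10.44 and 10.31, a change of -1.05 ± 0.14 (adjusted p = 8.88e-05). None of the type VI chains passed: COL6A1 gave 8.81 and 9.04 against 8.96 and 8.92, COL6A2 8.46 and 8.35 against 8.32 and 8.0, and COL6A3 9.04 and 9.15 against 8.91 and 8.87.

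Among the enzymes, 3 of 12 fell. LOX, which crosslinks fibrillar collagen and elastin, went from 9.76 and 9.89 to 8.72 and 8.62, a change of -1.16 ± 0.22 (limma adjusted p = 0.0045). LOXL3 fell by the same amount, from 7.84 and 7.88 to 6.78 and 6.63 (adjusted p = 0.000735). SERPINH1 fell from 11.19 and 11.35 to 10.86 and 10.99, a change of -0.35 ± 0.09 at the edge of the threshold (adjusted p = 0.0489). LOXL1, at 8.49 and 8.50 against 7.65 and 7.81, did not pass (limma adjusted p = 0.195). It was called lower under neqc, normexp, no background correction and with the line fitted alone. LOXL2 was undetected. The hydroxylases had lower values with the TRPM7 shRNA without a call: P4HA1 8.90 and 8.98 against 8.59 on both arrays, P4HA2 10.49 on both arrays against 10.12 and 10.11, and PLOD2 11.25 and 11.22 against 10.71 and 10.70. A second, dimmer P4HA2 probe did pass, with a change of -0.51 (adjusted p = 0.047), and P4HA1, P4HA2 and PLOD2 all passed with the SH-EP2 arrays fitted alone (0.0262, 0.00164 and 1.92e-06). PLOD1 (-0.06 ± 0.08) and PLOD3 (-0.16 ± 0.08) differed little. The call of LOX was lost without control replicate 1 or 2 or TRPM7 shRNA replicate 2 (0.0511, 0.105 and 0.0763) and that of SERPINH1 without any of the 4 SH-EP2 arrays (0.0995 to 0.431), whereas COL1A2, COL4A1, COL18A1 and LOXL3 were called whichever of the 8 arrays was left out.

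**Figure D3:**
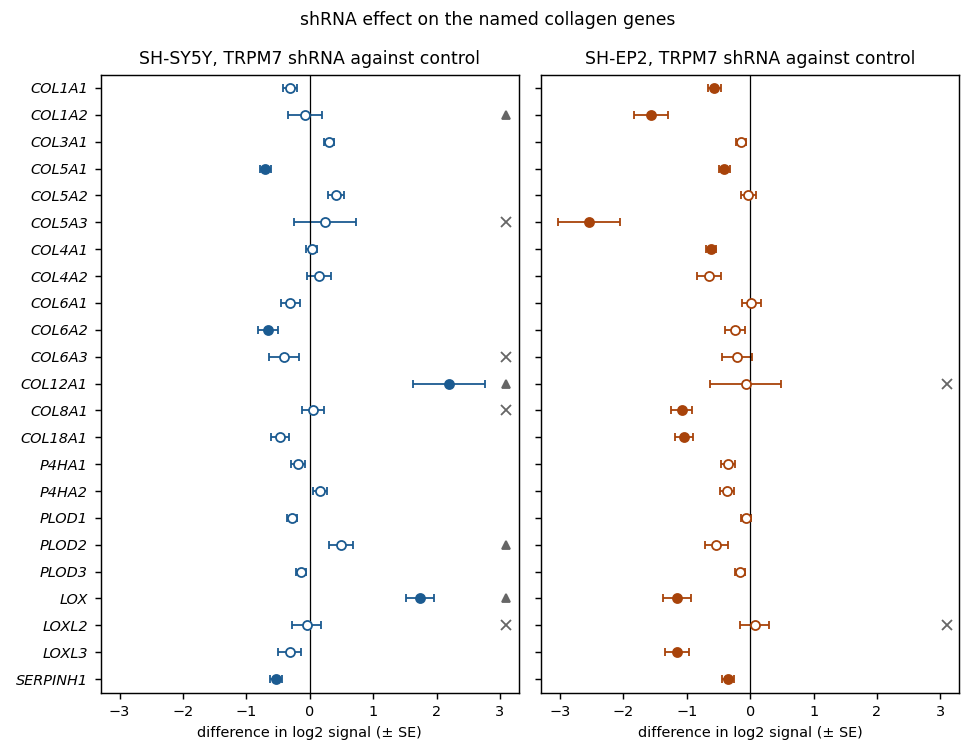
Difference in log2 signal between TRPM7 shRNA and control arrays (x axis, ± SE of the fit on 2 arrays per group) for the named genes in SH-SY5Y (left) and SH-EP2 (right). Filled dots passed an adjusted p of 0.05; a cross at the right edge marks a gene undetected in both groups and a triangle a gene undetected in 1 of them, for which the difference is not a measured fold. In SH-EP2 every filled dot lies left of 0, whereas in SH-SY5Y COL12A1 and LOX lie to the right.

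In SH-SY5Y the same comparison called 5 of 55 genes, with COL5A1, COL6A2 and SERPINH1 lower and LOX and COL12A1 higher with the TRPM7 shRNA. This was 9.09% of the members, where 2.58% of all genes were called, 1.57% as lower and 1.01% as higher. Of the 14395 genes detected on both arrays of at least 1 SH-SY5Y group, 5.53% were called. The 5 called members were among 24 detected in that way. At an unadjusted p of 0.05, 15 members passed, 8 lower and 7 higher. Scaling arrays to their medians turned the split to 3 higher and 1 lower, with COL6A2 and SERPINH1 no longer called and COL3A1 called as higher (limma adjusted p = 0.0318). This scaling moved all probes: their median change was 0.092, against 0.0048 in the main fit. In the main fit the median change of the members was -0.099, against 0.0034 over all genes. As a description, the median change was -0.23 over the 24 detected members and 0.019 over the detected genes. No member passed without moderation or without the trend in the variance prior, where 14 and 12 members had an unadjusted p under 0.05.

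COL5A1 gave the firmest change, from 8.01 and 7.95 to 7.34 and 7.22, or -0.70 ± 0.09 (SE, n = 2; limma adjusted p = 5.92e-05). SERPINH1 fell from 9.32 and 9.22 to 8.75 and 8.72, a change of -0.54 ± 0.09 (adjusted p = 0.00197). COL6A2 fell from 6.90 and 6.73 to 6.07 and 6.24 (adjusted p = 0.0264), but its other probes changed by -0.14 and -0.07, neither of which passed, and the call was lost without control replicate 1 or 2 or TRPM7 shRNA replicate 1 (0.141, 0.0512 and 0.185). LOX was undetected in control, at 3.06 and 3.20, and detected on both arrays with the TRPM7 shRNA, at 4.42 and 5.32, at least 3.29-fold higher (limma adjusted p = 8.36e-05). Without background correction the fitted change of LOX was 0.27 and did not pass (adjusted p = 0.0852). COL12A1, a fibril-associated collagen of tendon and stressed tissue, was undetected at 1.63 and 2.08 in control and gave 4.92 and 3.19 with the TRPM7 shRNA, at least 1.87-fold higher (adjusted p = 0.0483); without background correction its change was 0.33. The call of COL12A1 was lost on leaving out any array other than SH-SY5Y TRPM7 shRNA replicate 2 (0.0539 to 0.461), and its second probe was undetected on all arrays. COL5A1, SERPINH1 and LOX were called whichever array was left out.

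Most of the genes that fell in SH-EP2 could hardly be read or did not pass in SH-SY5Y. COL4A1 gave 8.82 and 8.64 in control and 8.78 and 8.74 with the TRPM7 shRNA, so the groups overlapped, and COL4A2 gave 5.60 and 5.12 against 5.25 and 5.76. COL1A1 gave 6.33 and 6.62 against 6.14 and 6.18 (adjusted p = 0.182), and COL18A1 7.23 and 6.76 against 6.41 and 6.64 (0.095). COL3A1, at 10.47 and 10.31 against 10.73 and 10.65, had higher values with the TRPM7 shRNA and just missed the threshold (adjusted p = 0.0502). COL1A2 was detected on 1 of 4 SH-SY5Y arrays, and COL5A3 and COL6A3 on none. COL5A2, at 3.45 and 3.44 against 3.95 and 3.76, and COL6A1, at 6.58 and 6.24 against 6.10 on both arrays, did not pass. Among the enzymes, PLOD1 gave 10.83 and 10.70 against 10.58 and 10.37 (adjusted p = 0.0764), PLOD3 10.63 and 10.71 against 10.52 and 10.53, P4HA1 8.57 and 8.47 against 8.28 and 8.40, and P4HA2 7.49 and 7.39 against 7.72 and 7.48. PLOD2 was detected on 1 of 4 arrays.

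By the probe that stands for each gene, 2 genes were lower in both lines, COL5A1 and SERPINH1. This is 66.7% of the 3 lower in SH-SY5Y and 20.0% of the 10 lower in SH-EP2. The difference between the 2 effects did not pass for either gene, at 0.29 ± 0.12 (limma adjusted p = 0.402) for COL5A1 and 0.19 ± 0.13 (0.684) for SERPINH1. The fall of SERPINH1 missed the threshold in both lines when arrays were scaled to their medians (0.108 in SH-SY5Y and 0.180 in SH-EP2), and that of COL5A1 in SH-EP2 (0.136). A second, dimmer COL8A1 probe was also called lower in both lines. In SH-SY5Y that probe was near the detection limit, detected only on a single control array.

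Whether the shRNA effect differed between the lines was tested as an interaction, the effect in SH-EP2 minus that in SH-SY5Y. Of the 55 genes 3 passed, LOX, COL4A1 and COL8A1, all with the lower effect in SH-EP2. This was 5.45% of the members, where 1.80% of all genes passed, 0.802% with a lower and 0.999% with a higher effect in SH-EP2. Of the genes detected on both arrays of at least 1 of the groups, 3.56% passed. The 3 members that passed were among 37 detected in that way. LOX differed by a fitted -2.90 ± 0.32 (limma adjusted p = 2.03e-05) and was called whichever array was left out. As its SH-SY5Y control arrays were under detection, that size is not a measured one, and it was -1.24 without background correction (4.26e-08). COL4A1 differed by -0.65 ± 0.12 (adjusted p = 0.00396) and lost the call, among single arrays left out, only without SH-EP2 control replicate 2 (0.0586). COL8A1 differed by -1.13 ± 0.24 (adjusted p = 0.0143), but its probe was undetected in all SH-SY5Y arrays, where no effect could be read, and the call was lost without any of the 4 SH-EP2 arrays (0.10 to 0.232). By a second COL8A1 probe, detected on 1 of 2 SH-SY5Y control arrays and on neither TRPM7 shRNA array, the change in SH-SY5Y was -1.13 (adjusted p = 0.00414) and the lines differed by 0.13 (0.938). COL1A2 (-1.48 ± 0.38, adjusted p = 0.058), COL3A1 (-0.44 ± 0.11, 0.052) and COL5A3 (-2.79 ± 0.69, 0.0509) missed the threshold narrowly. At an unadjusted p of 0.05, 18 members passed, 14 lower and 4 higher, and without moderation or without the trend none passed after adjustment, with 11 and 10 before it.

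**Figure D4:**
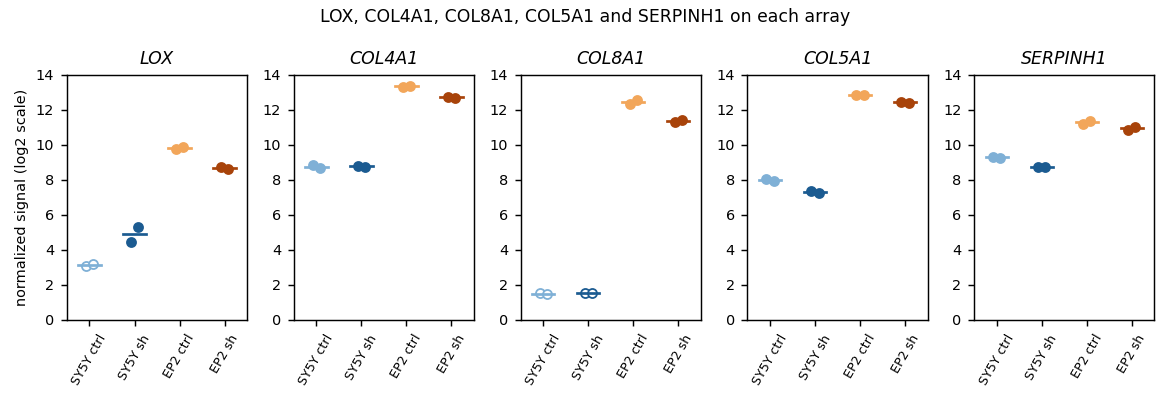
Log2 signal on each array (y axis), by the probe of the highest mean signal of each gene. By these probes the shRNA effect differed between the lines for LOX, COL4A1 and COL8A1, and COL5A1 and SERPINH1 were lower in both. The COL8A1 probe was undetected in SH-SY5Y. Dots are arrays, lines group means, open dots groups without detection on both arrays; ctrl is the scrambled control and sh the TRPM7 shRNA. LOX moved from 3.06 and 3.20 to 4.42 and 5.32 in SH-SY5Y and from 9.76 and 9.89 to 8.72 and 8.62 in SH-EP2.

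The wider collagen pathway was read through 37 further genes of folding, export, extracellular assembly and cell surface receptors. In SH-EP2, 5 of them fell and 2 rose with the TRPM7 shRNA, where 3.68% of all genes and 8.19% of detected genes were called. FKBP10, a folding factor of the endoplasmic reticulum, fell from 7.37 on both arrays to 6.44 and 6.46 (limma adjusted p = 0.0189), and it was the only 1 of 13 folding genes to pass. SEC24D, a coat protein of the vesicles that carry procollagen, fell by 0.56 (adjusted p = 0.0248), and BMP1, the protease that removes the C-terminal propeptide of fibrillar procollagen, by 0.49 (0.0337). Of the 10 receptor and uptake genes, the collagen-binding integrin chains ITGA11 and ITGA1 fell, ITGA11 from 9.75 and 9.88 to 7.92 and 7.88 (-1.91 ± 0.24, adjusted p = 5.81e-05) and ITGA1 from 6.73 and 6.71 to 5.31 and 5.07 (0.00605). A further collagen-binding integrin chain, ITGA2, rose from 6.10 and 6.36 to 7.69 and 7.74 (1.49 ± 0.21, adjusted p = 0.000213), and the collagen receptor kinase DDR1 rose by 0.86 (0.0217). In SH-SY5Y 1 of the 37 passed, where 2.58% of all genes and 5.53% of detected genes were called. This was SEC23A, a coat protein of the same vesicles, which fell from 5.66 and 6.02 to 4.65 and 4.99 (limma adjusted p = 0.0184). The effects differed between the lines for ITGA11 (-1.82, adjusted p = 0.00565) and ITGA2 (1.94, 0.000896).

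Some markers of both cell states also moved with the TRPM7 shRNA. Over all genes 3.68% were called in SH-EP2 and 2.58% in SH-SY5Y, and over detected genes 8.19% and 5.53%. Of the 12 mesenchymal markers 4 fell in SH-EP2, namely TAGLN (-1.05), SNAI2 (-1.39), THY1 (-0.48) and TWIST1 (-0.37), CD44 rose (0.77) and 7 did not pass. Their median change was 0.038, while their summed linear signal was 55233 to 57132 in control and 48102 to 49173 with the TRPM7 shRNA, a sum carried by the brightest probes. In SH-SY5Y, SNAI2 (-2.77), VIM (-0.30) and S100A6 (-0.35) fell while TAGLN (0.92) and ANXA1 (0.78) rose, with a median of 0.15 over the 12. Of the 11 noradrenergic markers, DBH (-1.20), ISL1 (-0.45) and STMN2 (-0.58) fell in SH-SY5Y and 8 did not pass. The median change over the 11 was -0.24, and the changes reached 0.35. Their summed signal in SH-SY5Y, in which bright probes again weigh most, was 36561 to 37244 in control and 25780 to 27809 with the TRPM7 shRNA. In SH-EP2, CHGB rose (1.01) and GATA2 (-0.78) fell, and CHGA was called lower (-0.63) while undetected in both groups. The part of these markers in the collagen changes was not tested, and neither was a change in the mix of cell states, since in such bulk RNA fewer cells of a type and less RNA per cell cannot be told apart. The Schwann markers SOX10 and S100B were undetected on all arrays.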

How the data were processed

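The deposited table held, for 47322 probes of Illumina HumanHT-12 v4 arrays, the bead intensity and a detection p-value on each of 8 arrays, which the authors extracted with GenomeStudio (version 2011.1) and deposited without background correction or normalisation. Intensities were corrected with the RMA background model (own code, after the normalisation the study names), quantile normalised over all 8 arrays and log2 transformed, without a filter. A linear model with 1 mean for each of the 4 groups was fitted in limma 3.58.1 (R 4.3.3, statmod 1.5.0) with a variance prior that follows signal, and p-values of all probes were adjusted together (Benjamini-Hochberg, threshold 0.05). The fit was also run on simulated arrays with normal noise of the spread that the model itself assumes. This checked the code, not whether the model suits these arrays. With 2 arrays per group, 4 residual degrees of freedom were joined by 14.96 from the prior, so precision is limited by how few arrays there are. Symbols came from the table, which names 44052 probes and leaves 3270 unnamed. A probe undetected in 1 group gives a fold only as a bound: the mean of the brighter group against, per array, the higher of the lowest detected signal and the probe's own. Named genes were those called and detected with either shRNA comparison or the interaction, 19 fixed chains and enzymes, and the 10 largest called differences between control lines. From the pathway list the called genes were named. Outside these rules, values are also given for COL7A1, COL9A1 and LOXL4, and in SH-EP2 for COL4A5 and LOXL1. The members and lists were chosen with earlier results of these data known. Replicate numbers were not used to pair the arrays, since the sources do not say what they mark. The r of replicate differences was -0.111 in SH-SY5Y and -0.0044 in SH-EP2 over 14577 probes detected on all arrays. With so few arrays, these values cannot show whether arrays shared a culture or day. Alternatives were other background corrections, median scaling, a detection filter, other variance models, each line alone, a replicate block, the mean over a gene's probes and each array left out. They were read for the collagen genes only.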

Additional observations from a re-analysis of the deposited data

Results flagged for a closer look

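The shRNA effect differed between the lines by the interaction test for 3 collagen genes. The effect in SH-EP2 minus that in SH-SY5Y was -2.90 on the log2 scale for LOX, -0.65 for COL4A1 and -1.13 for COL8A1. LOX was at least 3.29-fold higher with the TRPM7 shRNA in SH-SY5Y, where control signals were under detection, and changed by -1.16 ± 0.22 (SE) in SH-EP2. Without background correction the SH-SY5Y change of LOX was 0.27 and not called (limma adjusted p = 0.0852), and the interaction was -1.24. For COL4A1 the effects were 0.03 ± 0.08 and -0.62 ± 0.08. For COL8A1 the SH-SY5Y side was undetected in both groups, and its second probe gave a difference of 0.13. The origin of these differences was not tested. With 2 arrays per group, single arrays could not be checked as outliers.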

How the results depend on the processing

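The alternatives were read for the 55 collagen genes only, so the calls of pathway genes and cell type markers were not checked in this way. Among the collagen genes, no result of a named gene reversed, and uncalled values that stayed uncalled were counted as kept. The 29 calls between control lines became 25 to 30 under every alternative run. In SH-SY5Y the 5 calls became 3 without background correction, with that line fitted alone and with the mean over a gene's probes. They became 0 with a variance prior without a trend and 0 with a per-probe test. Median scaling gave 4 (3 higher and 1 lower), and the crossed block below gave 8. Without SH-SY5Y control replicate 1 or 2 or TRPM7 shRNA replicate 1, COL12A1 and COL6A2 lost their calls and other genes were called instead. In SH-EP2 the 10 calls became 16 with normexp and an offset of 50, 17 without background correction and 17 with that line alone. They became 8 with median scaling and 0 in both other variance models. Leaving out any SH-EP2 array lost calls and added none, whereas leaving out any SH-SY5Y array added calls and lost none. The 10 genes called were all among the 15 to 17 called under neqc, normexp, no background correction and the line alone, which added 1 higher call under the first pair (COL7A1) and 2 under the other (COL7A1 and COL4A5). In the interaction the 3 calls became 7 with neqc, 12 with normexp, 14 without background correction, 5 with the detection filter, 0 in both other variance models, and 1 to 7 with single arrays left out. The cause of these shifts was not tested. A replicate block gave 4 calls in SH-SY5Y, 9 in SH-EP2, 4 in the interaction and 30 between control lines; COL12A1 and SERPINH1 (in SH-EP2) lost their calls (adjusted p = 0.0539 and 0.0790) and COL1A2 gained one in the interaction (0.0194). Crossing the replicate numbers in SH-SY5Y, a replicate block added after seeing the data, gave 8, 12, 7 and 30 calls. Leaving out an array leaves its group with 1 array, which is then assumed to vary like the others. Signals at background limit SH-SY5Y, where 22 of 55 genes were detected on both control arrays, against 30 in SH-EP2.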
